A study of Homo sapiens with 22 samples.

Results

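The major histocompatibility complex (MHC) region is taken here as chromosome 6 from position 28900000 to 33400000 of hg19, 4.5 Mb or 0.145% of the assembled chromosomes. A peak belonged to it if its start lay in that interval, so the rule itself uses position alone. Of 1311182 peaks on chromosomes 1 to 22, X and Y in 13 peak lists, 5052 met this rule. The region was split at positions 31200000 and 32200000 into a first part of 2.3 Mb on the class I side with 2219 peaks, a middle part of 1 Mb that is mostly class III with 1840 peaks, and a last part of 1.2 Mb on the class II side with 993 peaks. In the longest list the nearest starts were 28897239 outside and 28902574 inside the left edge, and 33399199 inside and 33400440 outside the right edge.

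The cells were K562, an established human line from a chronic myeloid leukaemia, and every group stably carried the bacterial biotin ligase BirA. One group also carried FLAG- and biotin-tagged WT1 (Wilms tumour 1, a zinc finger transcription factor) that lacks KTS, the tripeptide lysine-threonine-serine, between its last zinc fingers, and another carried tagged WT1 that has it. Both forms held the insert of 17 amino acids, both plasmids are named for the EF1a promoter, and the untagged group carried BirA alone. Streptavidin capture of WT1 gave 2 lists for −KTS, 3 for +KTS and 3 for untagged cells, and immunoprecipitation of H3K4me3 gave 3 lists in −KTS cells and 2 in +KTS cells. The 9 input libraries were not analysed here. Nothing in the labels says whether replicates were separate cultures or whether a line was 1 clone, so the tests measure a spread that may be technical.

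The MHC is among the most gene-dense stretches of the human genome. Its class I genes (such as HLA-B and HLA-C) encode proteins that show peptides from inside the cell to cytotoxic T cells. Its class II genes (HLA-DR, HLA-DQ and HLA-DP) encode proteins that show peptides from outside the cell to helper T cells, and they are switched on by the coactivator CIITA mainly in antigen-presenting cells. The class III genes between them are mostly not HLA genes and include complement components, TNF, heat shock proteins and many genes that most cells use. K562 is known for little HLA on its surface. H3K4me3 marks the promoters of active or poised genes. WT1 −KTS binds GC-rich DNA sites through its zinc fingers, and +KTS is better known for binding RNA and for a weaker hold on DNA. The 2 borders inside it are round positions and not gene ends: on hg19 the class I genes HLA-B and HLA-C lie just inside the middle part.

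Promoter sequences of MHC genes are shown to make the 3 gene classes concrete, and because DNA-binding sites of the WT1 type and the promoter box shared by HLA genes can be read in them. No hg19 genome or annotation was at hand, so no peak could be placed on these genes and peaks are named by coordinates alone. The sequences are RefSeq's, build GRCh38.p14, written 5′ to 3′ on the gene's own strand, 250 bases up to the gene's start. HLA-DRB1 encodes a class II beta chain and HLA-C a class I heavy chain, both on the minus strand, and their capitals mark the Y box, a site of the factor NF-Y. PRR3 encodes a proline-rich zinc finger protein next to GNL1 on the class I side, and TNF encodes the cytokine tumour necrosis factor in class III. Both lie on the plus strand, and their capitals mark a site of the WT1 and EGR type.

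HLA-DRB1: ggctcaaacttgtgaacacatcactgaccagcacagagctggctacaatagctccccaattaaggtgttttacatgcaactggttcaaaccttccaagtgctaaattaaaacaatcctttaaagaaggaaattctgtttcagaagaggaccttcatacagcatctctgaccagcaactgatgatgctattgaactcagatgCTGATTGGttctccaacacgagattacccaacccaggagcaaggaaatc
HLA-C: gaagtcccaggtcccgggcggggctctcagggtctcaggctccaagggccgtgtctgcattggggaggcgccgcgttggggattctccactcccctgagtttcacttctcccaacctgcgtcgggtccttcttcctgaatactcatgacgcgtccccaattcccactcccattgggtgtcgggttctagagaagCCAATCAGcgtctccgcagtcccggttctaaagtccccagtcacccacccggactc
PRR3: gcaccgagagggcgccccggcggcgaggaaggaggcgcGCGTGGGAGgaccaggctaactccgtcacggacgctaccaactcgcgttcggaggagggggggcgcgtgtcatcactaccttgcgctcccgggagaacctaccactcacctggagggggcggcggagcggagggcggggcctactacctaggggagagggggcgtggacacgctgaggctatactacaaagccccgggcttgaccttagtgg
TNF: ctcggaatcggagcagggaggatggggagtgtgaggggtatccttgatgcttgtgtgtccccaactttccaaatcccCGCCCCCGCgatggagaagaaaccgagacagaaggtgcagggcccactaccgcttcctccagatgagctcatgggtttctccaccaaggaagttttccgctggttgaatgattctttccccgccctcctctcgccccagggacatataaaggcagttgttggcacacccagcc

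Classes were set by gene order: 49 genes from HLA-F to MICB, 59 from MCCD1 to NOTCH4 and 20 from TSBP1 to HLA-DPB1, of which 43, 53 and 19 matched a promoter in the table. The letters searched on both strands, over 300 bases from 250 before to 50 after the start, were GCGGGGGCG, GCGTGGGCG and GCGTGGGAG for the WT1 type and CTGATTGG for the Y box. None of these 4 words holds another, though matches can overlap. At least 1 WT1-type site stood in 6 of 43 class I, 2 of 53 class III and 0 of 19 class II promoters, against 6.29% of all 27305 promoters in the table. The Y box stood in 6 of 43, 4 of 53 and 6 of 19, against 4.16% of all promoters. These counts are of promoters and not of separate sites. PRR3 and GNL1 share 1 WT1-type site, read from opposite strands, and HSPA1A and HSPA1L of class III share 1 Y box. Of the HLA genes themselves, 3 of 4 class I and 6 of 12 class II promoters held the Y box and none held a WT1-type site. The median GC content was 59.7% for class I, 59.0% for class III and 46.3% for class II, against 58.3% for all promoters. A match of letters is a description and not a bound site, and these sites were counted after the peak values were known.

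The first comparison asks how dense peaks of each kind were in the region. Every H3K4me3 and WT1 list was denser there than over its whole genome, and the middle part was the densest in all 10 of these lists (9 of 10 when lists of an assay were cut to equal length, the exception being WT1 +KTS 1). In −KTS cells the H3K4me3 lists had 272, 298 and 251 MHC peaks, and in +KTS cells they had 182 and 244. Divided by each list's own density over the genome, the densities in −KTS cells were 5.58, 4.35 and 4.46 (mean 4.80 ± 0.684, SD, n = 3), and those in +KTS cells were 4.58 and 3.16 (mean 3.87 ± 1.00, SD, n = 2). The second H3K4me3 list of +KTS cells was the lowest, and the other 4 lay between 4.35 and 5.58.

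The WT1 lists differed far more in length than in their fold. WT1 −KTS had 587 and 21 MHC peaks of 154732 and 3245, at folds of 2.61 and 4.45 (mean 3.53 ± 1.30, SD, n = 2). WT1 +KTS had 1721, 1363 and 109 MHC peaks of 543203, 373510 and 35455, at folds of 2.18, 2.51 and 2.11 (mean 2.27 ± 0.212, SD, n = 3). Untagged cells had 1, 0 and 3 MHC peaks of 743, 101 and 311, all 4 in the last part. Read depth is unknown for every list, so longer lists need not mean more binding.

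H3K4me3 lists were 1.63-fold more enriched in the region than WT1 lists (geometric means 4.35 and 2.66, 5 lists each; difference 0.71 on the log2 scale, two-sided exact permutation p = 0.0238, adjusted p = 0.15 over 12 tests). The ranges overlapped, since the 21 peaks of the second −KTS list stood at 4.45, above 2 of the 5 H3K4me3 lists. The difference was 0.58 (exact permutation p = 0.0794) when each list was set against the rest of chromosome 6, and 0.56 (p = 0.0714) when peaks within 1 kb were joined, so the unadjusted call was lost. The isoforms did not overlap, with −KTS 1.51-fold above +KTS (difference 0.59 on the log2 scale, exact permutation p = 0.2, adjusted p = 0.343), and 2 against 3 lists cannot give less than 0.2. With peaks scored at least 50 in every list, the +KTS folds were 2.62, 2.97 and 2.26 and the isoforms overlapped (difference 0.39, exact permutation p = 0.6). Leaving out 1 list moved the difference between 0.21, without −KTS 2, and 0.98, without −KTS 1. H3K4me3 in the 2 kinds of cell differed by 0.33 (exact permutation p = 0.6, adjusted p = 0.682), less than the spread between lists, and by 0.058 without the second and 0.59 without the first list of +KTS cells, the 2 extremes when 1 list was left out.

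The second comparison asks how the 3 parts differed within each list. H3K4me3 per Mb in the first, middle and last part was 44.8, 110 and 49.2 in the first list of −KTS cells, 55.7, 100 and 58.3 in the second, and 42.2, 96 and 48.3 in the third. In +KTS cells it was 32.17, 67 and 34.2 in the first list and 50, 80 and 40.8 in the second. Averaged over each part, the class I and class II sides thus stood close to each other in all 5 lists, and both stood below the middle part. Even the lower sides, each taken whole, were 2.38- to 4.54-fold denser than the list's genome average, and the middle part was 4.66- to 10.2-fold denser. The average of the last part hides an uneven spread. Its windows chr6:32400001-32500000 and chr6:32500001-32600000 had 0 H3K4me3 peaks in every list. Toward its far end, chr6:33200001-33300000 held 24, 25, 23, 16 and 17, with the lists in the order given above.

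WT1 peaks followed the same order for the middle part. Peaks per Mb in the first, middle and last part were 109, 217 and 99.2 for the first −KTS list. The second −KTS list had 2.17, 12 and 3.33 per Mb, which rest on 5, 12 and 4 peaks. In +KTS they were 342, 613 and 267.5 in list 1, 260.9, 515 and 206.7 in list 2, and 25.7, 30 and 16.7 in list 3. The middle part was highest in each of these lists, by the least in +KTS 3. The last part was the lowest in 4 of the 5, the exception being −KTS 2.

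**Figure D1:**
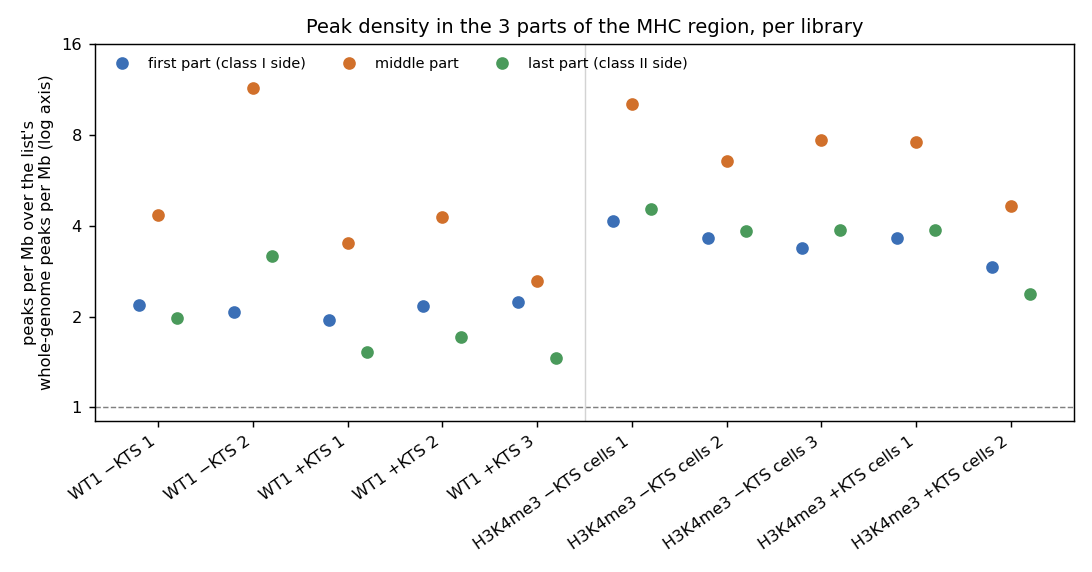
Peak density in the first (class I side), middle and last (class II side) part of the MHC region, each divided by the same list's density over all chromosomes (log axis, dashed line at 1), for 5 WT1 and 5 H3K4me3 lists. The middle part lies highest in all 10 lists, between 2.62 and 11.4, and the first and last parts lie between 1.45 and 4.54.

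As a ratio of densities with 0.5 peaks added, the middle part exceeded the first by 2.02-fold for H3K4me3 (1.60 to 2.46) and 2.13-fold for WT1 (1.18 to 5.23). It exceeded the last by 1.96-fold for H3K4me3 (1.71 to 2.23) and 2.37-fold for WT1 (1.79 to 3.33). Each of these 4 ratios was above 1 in 5 of 5 lists, with an exact sign-flip p = 0.063 and adjusted p = 0.15, and 0.063 is the smallest that 5 lists can give. With equal lists the middle part exceeded the last in 4 of 5 WT1 lists (exact sign-flip p = 0.188). The last part against the first was 1.03-fold for H3K4me3 (0.821 to 1.15, above 1 in 4 of 5 lists, exact sign-flip p = 0.625, adjusted p = 0.682). For WT1 it was 0.898-fold (0.660 to 1.57, above 1 in 1 of 5 lists, exact sign-flip p = 0.5, adjusted p = 0.667). Taken as a whole part, the side with the class II genes was thus not shown to differ from the class I side in either assay.

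The 2 assays were then compared on these ratios. The middle part against the first differed between H3K4me3 and WT1 by −0.07 on the log2 scale (exact permutation p = 0.889, adjusted p = 0.889). The middle against the last differed by −0.27 (exact permutation p = 0.0952, adjusted p = 0.190), and the last against the first by 0.20 (exact permutation p = 0.429, adjusted p = 0.643). No part was shown to favour one assay. Without WT1 +KTS 3 the middle against the last differed by −0.37 (exact permutation p = 0.0317), and without WT1 −KTS 2 the last against the first differed by 0.40 (exact permutation p = 0.0317), both unadjusted.

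Within the parts, H3K4me3 peaks were uneven, from 0 to 23 per 100 kb in the first part for the first list of −KTS cells. WT1 +KTS 1 and +KTS 2 had peaks in every such window of the region. Of windows of 100 kb, 3 of 23 in the first part, 0 of 10 in the middle and 2 of 12 in the last had no H3K4me3 peak in any of 5 lists. The share of such windows over the genome was not counted. Among 3110 windows of 1 Mb over the genome, the one from 31 to 32 Mb ranked between 8 and 45 by H3K4me3 peaks and between 31 and 227 by WT1 peaks. Over the 45 windows of the region, 2 H3K4me3 lists had rank correlations of 0.81 to 0.94, and an H3K4me3 and a WT1 list had 0.29 to 0.78. These are descriptions over neighbouring windows, and all lists share the gene density of the region.

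**Figure D2:**
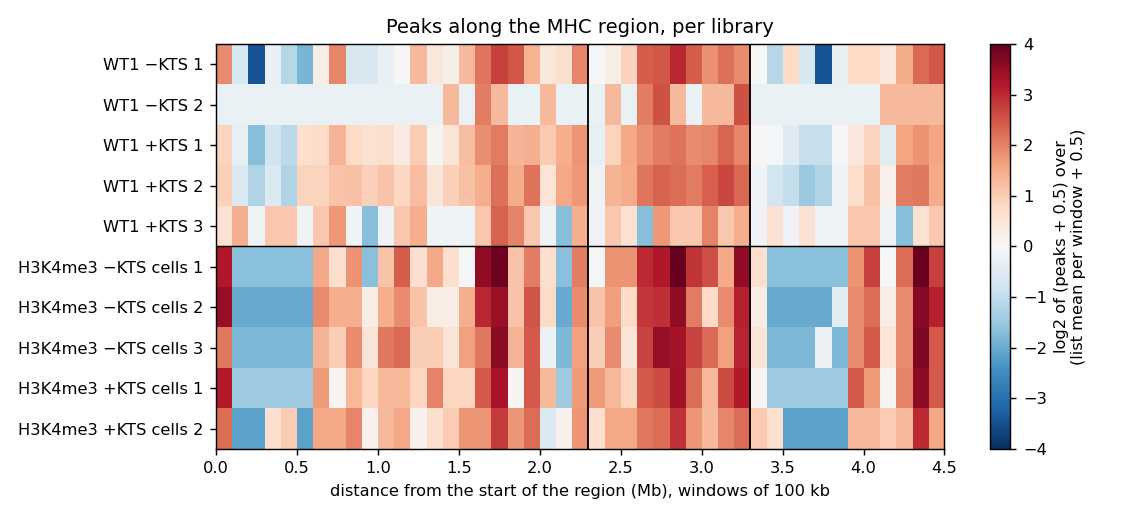
Peaks per 100 kb window along the MHC region for 10 lists, as log2 of the window's count over the list's mean per window, each with 0.5 added. The 2 vertical lines are the borders between the parts, and H3K4me3 is low in blocks near the left end and just past the second line.

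The longest stretch with no H3K4me3 peak in any list was chr6:32386713-32632683, 246 kb in the last part. It held 12 peaks of WT1 −KTS 1, 0 of −KTS 2, and 25, 12 and 3 of the +KTS lists. The next was chr6:28985721-29230014, 244.3 kb in the first part, with 4 and 0 peaks of −KTS and 22, 14 and 6 of +KTS. WT1 peaks were thus called in DNA without called H3K4me3. The others of the 6 longest were chr6:29354299-29513117 (158.8 kb), chr6:32632809-32764675 (131.9 kb), chr6:30351594-30433977 (82.4 kb) and chr6:32863439-32933988 (70.55 kb), and together the 6 covered 20.8% of the region, 3 in each outer part. Such stretches elsewhere in the genome were not measured, so none of these is shown to be unusually long.

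A broader gap appeared when only H3K4me3 regions found in all 5 lists were counted. Between them, chr6:28985109-29594913 spanned 609.8 kb of the first part and chr6:32223739-32805212 spanned 581.5 kb, 48.5% of the last part. In the second of these, −KTS cells had 0, 1 and 1 H3K4me3 peaks, and +KTS cells had 0 and 5. WT1 −KTS had 22 and 0 peaks there, and +KTS had 76, 40 and 8. Per Mb these were 37.8, 0, 131, 68.8 and 13.8, below the list's genome average except for +KTS 3. The longest such gap of the middle part, chr6:31941251-32094795, was 153.5 kb and held 32 and 1 peaks of −KTS and 123, 115 and 7 of +KTS. Per Mb those were 208, 6.51, 801, 749 and 45.6, each above the list's genome average. Regions in all 5 H3K4me3 lists stood at only 3.78 per Mb over the genome. Gaps between them elsewhere were not measured, so those of the MHC are not shown to be unusual.

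H3K4me3 peaks that overlapped between lists were merged into 298 regions, 141 in the first part, 99 in the middle and 58 in the last. Of these, 95 (31.9%) were called in all 5 lists, against 16.2% of the 72310 merged regions of the genome. By part they were 38, 34 and 23, or 27.0%, 34.3% and 39.7% of the part's regions. A further 141 (47.3%) were called in 1 list only, against 60.0% of the genome. Of those 141, 75 came from the second list of +KTS cells, as did 24103 of the 43374 over the genome. Regions in 1 list were thus a smaller share than in the genome, and regions in all 5 a larger one.

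**Figure D3:**
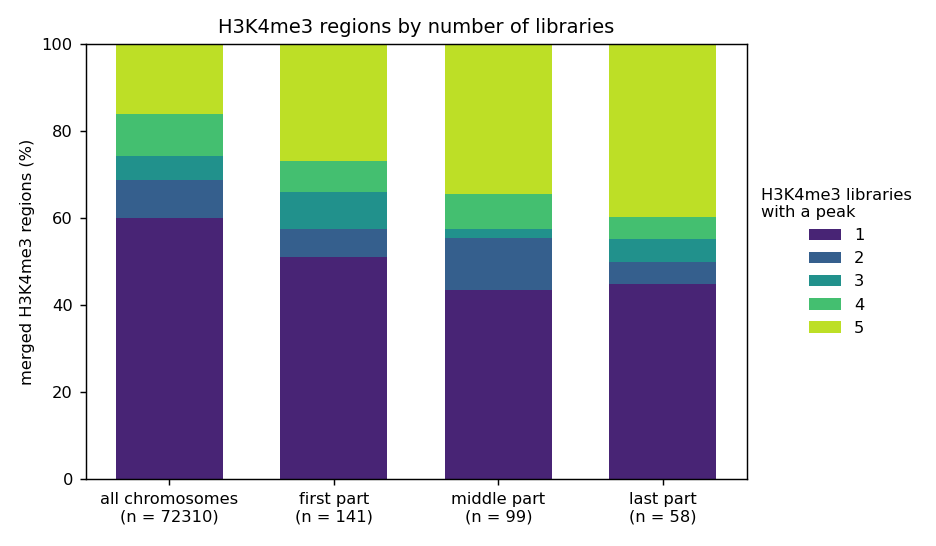
Merged H3K4me3 regions by how many of the 5 H3K4me3 lists called them, as a percentage of all regions on all chromosomes and in each MHC part. Regions in all 5 lists make up 16.2% over all chromosomes, and 27.0%, 34.3% and 39.7% in the first, middle and last part.

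Regions in all 5 lists stood at 16.5 per Mb in the first part, 34 in the middle and 19.2 in the last, against 3.78 over the genome. Their median width was 1439, 2097 and 1685 bp in the 3 parts. The widest were chr6:30649911-30656120 (6210 bp), chr6:31793914-31799110 (5197 bp) and chr6:33238480-33242926 (4447 bp), 1 in each part. Each of the widest held peaks of WT1 −KTS 1, +KTS 1 and +KTS 2, and none of −KTS 2 or +KTS 3. Over the genome, 33.0%, 65.7% and 88.4% of regions in all 5 lists held a peak of the former. For −KTS 2 and +KTS 3 these shares were 10.0% and 1.92%. The −KTS 1 peak at chr6:33238480-33242926 was outscored by 99.6% of its list.

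The regions that ranked best in every list were named by the authors' score, which orders peaks within a list only. In the first part they were chr6:30639568-30640903, chr6:30522719-30525844 and chr6:30688099-30689163. In the middle part they were chr6:31588429-31590391, chr6:31802407-31806499 and chr6:31864198-31866772. In the last part they were chr6:32939978-32942994, chr6:33264880-33268812 and chr6:32935756-32939700, the first and the last of them separated by a short gap. At chr6:31588429-31590391, the best of all, at most 1.60% of any H3K4me3 list scored higher. It held no peak of WT1 −KTS 1 and a peak of −KTS 2 that 82.4% of that list outscored.

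H3K4me3 called in the cells of 1 isoform only was about as frequent in the MHC as over the genome. In all 3 lists of −KTS cells and neither list of +KTS cells there was 1 of 298 regions (0.336%), chr6:33377229-33378078, against 0.306% of regions over the genome. In both lists of +KTS cells and none of −KTS cells there were 7 (2.35%), against 2.06%. They were chr6:31104562-31105521 and chr6:29817964-29818385 in the first part, and chr6:32116029-32116405, chr6:31786777-31787050, chr6:32075919-32076285, chr6:32160890-32161367 and chr6:32012215-32013064 in the middle. In the first H3K4me3 list of +KTS cells, 69.3% or more of the list outscored each of the 7. The lists of −KTS cells have no score under 50, and the others go down to 13. When all lists were held to scores of 50 or more, 5 regions of +KTS cells alone and 1 of −KTS cells alone were counted. Without the second list of +KTS cells there were 15 of +KTS cells alone and 4 of −KTS cells alone. Without the first there were 82 and 2. With 1 list of +KTS cells left, that list was used alone, and genome shares were not counted for these settings. Of the 72310 merged regions of the genome, 24103 were called in the second list of +KTS cells only.

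The third comparison asks how often WT1 peaks lay at H3K4me3 of the same cells, that is, on a merged region called in at least 2 of that cell type's lists. Such regions covered 4.55% of the MHC and 0.808% of the genome in −KTS cells, a 5.63-fold difference that was 4.08-, 10.0- and 4.98-fold in the first, middle and last part. In +KTS cells they covered 3.94% and 0.774%. For WT1 −KTS, 101 of 587 MHC peaks (17.2%, exact 95% interval 14.2 to 20.5%) and 16 of 21 (76.2%, 52.8 to 91.8%) lay there, against 4.49% and 47.3% of the whole lists. For +KTS the counts were 171 of 1721 (9.94%) and 212 of 1363 (15.6%), against 3.13% and 7.15%. Intervals are Clopper-Pearson, and they cover counting error only.

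Read against the covered length, the order turned round in 3 lists. The MHC share of −KTS 1 was 3.78 times the covered share, against 5.56 over the genome. For +KTS 1 and +KTS 2 it was 2.52 and 3.94 in the MHC, against 4.04 and 9.23 over the genome. The higher share of MHC peaks at H3K4me3 was thus smaller than the excess of H3K4me3 itself in each of these 3 lists. The −KTS 2 list was not read this way, since its share over the genome, 47.3%, is too near the full list for the MHC share to show such an excess. No test was made of these ratios, since peaks in 1 list are not independent.

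For WT1 +KTS 3, none of 109 MHC peaks lay at H3K4me3 of +KTS cells (0 to 3.33%). That interval holds the 2.45% of its whole list, so its MHC peaks are not shown to differ from the rest. Of the 109, 99 lay on a peak of +KTS 1 and 88 on one of +KTS 2. The shares of its whole list that did so were not counted. With the second H3K4me3 list of +KTS cells alone, 16 of 109 (14.7%) met a peak, against 14.8% of its whole list.

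**Figure D4:**
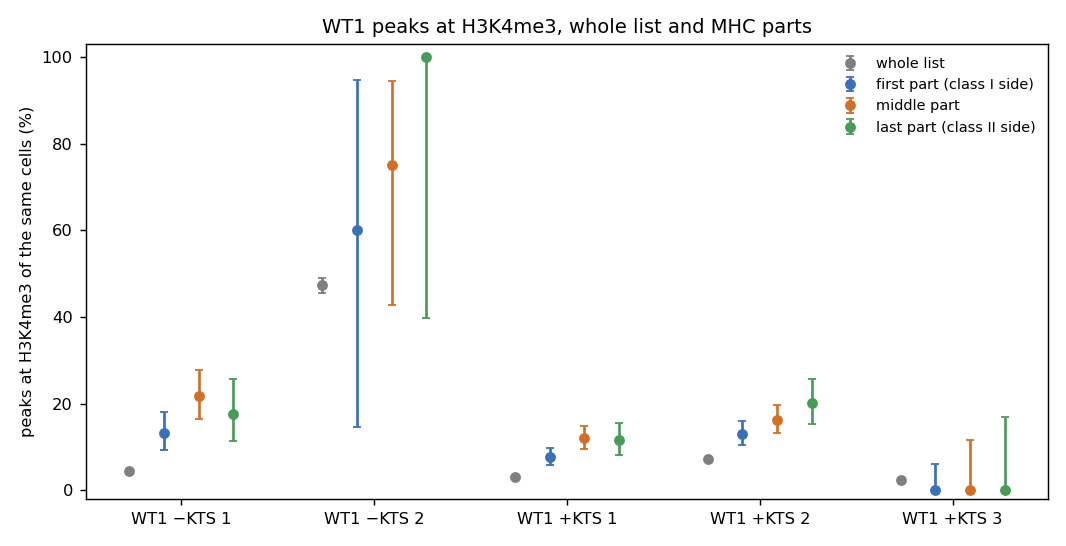
Percentage of WT1 peaks at H3K4me3 of the same cells, for each whole list (grey) and for its peaks in the first, middle and last MHC part, with exact 95% binomial intervals. The parts lie above the whole list in the −KTS and first 2 +KTS lists, with wide intervals for WT1 −KTS 2, and at 0 in WT1 +KTS 3.

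By part, the share at H3K4me3 was 13.1%, 21.7% and 17.6% for −KTS 1, 7.62%, 12.1% and 11.5% for +KTS 1, and 13%, 16.3% and 20.2% for +KTS 2. The first part was thus lowest in these 3 lists, and in the covered share it was lowest too. The median distance from an MHC peak to the nearest such region was 7.49 kb for −KTS 1, 8.70, 7.71 and 12.5 kb for the +KTS lists, and 0 for −KTS 2.

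Seen from the H3K4me3 side, the 95 regions in all 5 lists were then searched for WT1. A peak of WT1 −KTS 1 lay in 57 (60%), against 33.0% of such regions over the genome, and one of −KTS 2 in 14 (14.7%), against 10.0%. A peak of +KTS 1 lay in 80 (84.2%), against 65.7%, one of +KTS 2 in 91 (95.8%), against 88.4%, and one of +KTS 3 in 0, against 1.92%. The long +KTS lists leave little room above the background. Of the 95, 2 (2.11%) held no WT1 peak of any list, against 6.51% over the genome, and 12 (12.6%) held peaks of 4 of the 5 WT1 lists, against 5.82%.

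WT1 regions were called recurrent if at least 2 lists of 1 isoform had a peak there and no untagged list did. For −KTS there were 17, with 4 in the first part, 9 in the middle and 4 in the last, and 161 to 492 bp wide (median 256 bp). Of these, 14 (82.4%) lay at H3K4me3 of the same cells, against 47.9% of such regions over the genome, and 13 (76.5%) overlapped a recurrent +KTS region, against 47.0%. The second −KTS list has 21 peaks here, so it sets this number.

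For +KTS there were 1105 recurrent regions, with 493, 421 and 191 in the 3 parts, and 85 of them (7.69%) were in all 3 lists, near the 7.39% over the genome. Of the 1105, 146 (13.2%) lay at H3K4me3 of the same cells, against 5.02%, and 14 (1.27%) overlapped a recurrent −KTS region, against 0.334%. The overlap of the isoforms is thus 76.5% of the −KTS set and 1.27% of the +KTS set, sets of very unequal size. It was 0 when either of the first 2 +KTS lists was left out, so it rests on both of them.

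**Figure D5:**
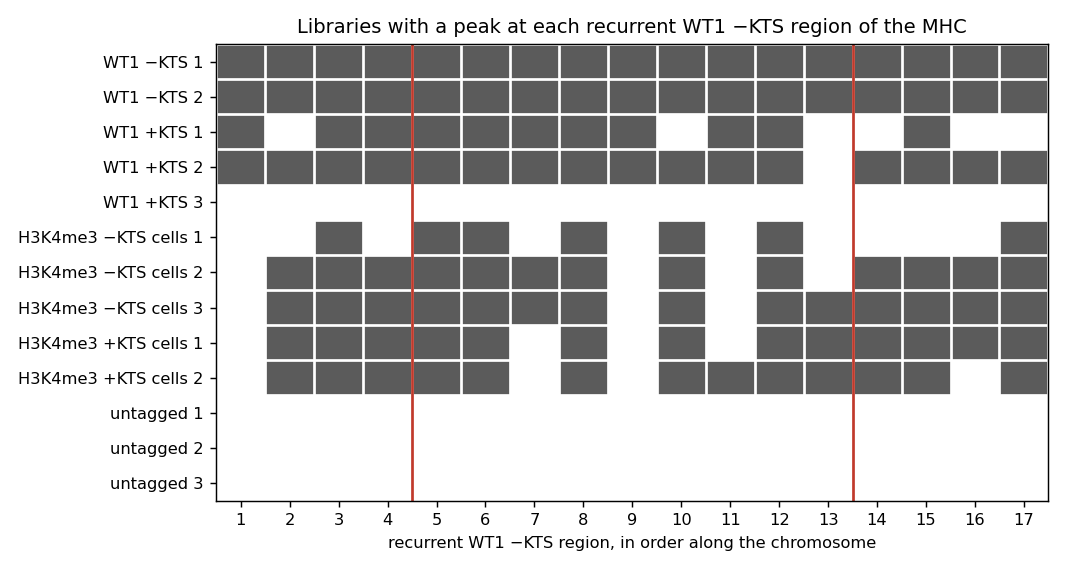
The 17 recurrent WT1 −KTS regions in order along the chromosome (columns, with the borders between the parts as vertical lines), each with a dark cell where a list (rows) has a peak. WT1 +KTS 2 has a peak at 16, WT1 +KTS 1 at 11, WT1 +KTS 3 and the untagged lists at 0, and 2 columns have no H3K4me3 peak.

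Of the 17, 11 held a peak of +KTS 1 (64.7%, against 45.3% of the 2022 recurrent −KTS regions of the genome), 16 one of +KTS 2 (94.1%, against 69.5%) and 0 one of +KTS 3 (against 1.93%). The 1 region without any +KTS peak (5.88%, against 23.9%) was chr6:32163584-32163784, which 4.11% of the −KTS 1 list and 8.44% of the −KTS 2 list outscored. All 5 H3K4me3 lists had a peak at 7 of the 17 (41.2%, against 10.4% over the genome), 1 to 4 lists at 8 (47.1%, against 56.0%), and no list at 2 (11.8%, against 33.6%). The 2 without H3K4me3 were chr6:30379377-30379594 and chr6:31744882-31745247, both with peaks of +KTS 1 and +KTS 2.

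The −KTS region chr6:31744882-31745247 stood near the top of both lists. Only 0.0259% of −KTS 1 and 3.73% of −KTS 2 scored higher, and 3.80% of +KTS 1 and 17.1% of +KTS 2 did. In the first part, chr6:30923418-30923718 was outscored by 0.105% and 7.43% of the −KTS lists and by 92.0% and 56.4% of +KTS 1 and +KTS 2. In the last part, chr6:33393015-33393208 was outscored by 0.412% and 4.10% of the −KTS lists and by 57.6% of +KTS 2, with no peak of +KTS 1. These regions were picked for their rank in the −KTS lists, and scores of different lists are not on 1 scale, so no difference between isoforms is read from them. In all, 6 of the 17 stood in the top 10% of both −KTS lists. The share of recurrent −KTS regions over the genome that did so was not counted, so this count is not read as a trait of the MHC.

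The remaining −KTS regions named by rank were chr6:30524087-30524388 in the first part, chr6:32122123-32122565 in the middle, and chr6:33244821-33245085 and chr6:33167863-33168029 in the last. The first of these lay inside chr6:30522719-30525844, one of the 3 best H3K4me3 regions of its part. At chr6:32122123-32122565 all 5 H3K4me3 lists and 4 of 5 WT1 lists had a peak.

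The best recurrent +KTS regions were named in the same way. In the first part they were chr6:29821351-29821678, chr6:30953862-30955407 and chr6:29780224-29781449. In the middle they were chr6:32155519-32156358, chr6:32187818-32189147 and chr6:31344871-31345870, and in the last chr6:33258420-33258732, chr6:33059450-33060591 and chr6:33166011-33166293. At most 1.51% of +KTS 1 or +KTS 2 scored higher at any of the 9. Of the 9, 4 had no H3K4me3 peak in any list, 3 had one in 1 list, 1 in 2 lists and 1 in 3 lists. Of all recurrent +KTS regions, 78.0% in the MHC and 87.3% over the genome had no H3K4me3 peak in any list. None of the 9 held a peak of −KTS 2 or +KTS 3, and of them chr6:33059450-33060591 alone held one of −KTS 1. A region's rank was its worst among the lists that called it, so a peak of +KTS 3 could not raise it. Of all 1105 recurrent +KTS regions, 25.4% held a peak of −KTS 1 and 1.45% one of −KTS 2. Over the genome these shares were 19.1% and 0.426%.

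The 4 untagged peaks give the background of the capture. They were chr6:32893428-32893610 in untagged 1, and chr6:32260756-32260948, chr6:33002291-33002551 and chr6:33238533-33238727 in untagged 3. The first 3 of them met no WT1 or H3K4me3 peak. The last lay in the widest H3K4me3 region of the last part and met peaks of WT1 −KTS 1 and +KTS 1, so that WT1 call has a peak in untagged cells at the same place.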

How the data were processed

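The 13 peak lists were used as deposited by the authors, 1 per library. Per the submitters' processing notes, Bowtie2 2.2.7, MACS2 2.1.1.20160226 and build hg19 were named. Of the calling control, the read filters and the threshold nothing is stated in the labels used here, so list lengths are not comparable between libraries. Each peak's score is the authors' own whole number, with a minimum of 50 in lists from −KTS cells and 13 in the others, and was used for order and cutoffs inside 1 list. The −KTS lists have "pooled" in their names without saying of what.

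Peaks were assigned by their start, positions are 1-based, and peaks overlapped if they shared at least 1 bp. Density was divided by the list's own density over 3094.73 Mb. Ratios between parts used peaks plus 0.5. Groups were compared with two-sided exact permutation tests and parts with exact sign-flip tests over lists, with 12 tests adjusted by Benjamini-Hochberg and a threshold of 0.05 on the raw p. Intervals are Clopper-Pearson at 95%. No list held a peak on the other MHC haplotype sequences. Whether reads were aligned to those sequences is not stated, so this does not show whether reads were lost to them. The 3 regions per set and part whose worst list rank was best were named, with the widest, all one-isoform H3K4me3 regions and all untagged peaks. The region, its borders and these rules were chosen with earlier results of these data known. The scripts were tested on simulated data. Python 3.11.15, numpy 2.4.6, pandas 2.3.3 and scipy 1.17.1 were used.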

Additional observations from a re-analysis of the deposited data

Results flagged for a closer look

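Values were checked in the 2 groups of 5 lists, 1 per assay, for a list far from the other 4, a check that flags about 1 group in 20 by chance. WT1 −KTS 2 had an MHC enrichment of 2.15 on the log2 scale, and its distance to the nearest other WT1 list was 0.718 of the whole range. That list has 3245 peaks, of which 21 lie in the region. The second H3K4me3 list of +KTS cells had a log2 ratio of the last part over the first of −0.28, below the other 4, and its distance to the nearest was 0.734 of the range.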

How the results depend on the processing

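Of 176 alternative values of the 12 tests, 8 turned round. Those values include adding the other haplotype sequences to the enrichment tests, which could not change a value because no list had a peak there. Only 4 tests, 5 lists against 5, could pass the threshold at all, and of their 74 alternative values 4 lost the call and 4 gained one. For the other 8 tests, with 102 values, the side of the threshold was fixed by the number of lists. The enrichment of H3K4me3 over WT1 (0.71, log2) lost its call with equal lists (0.62), peaks joined within 1 kb, an alternative chosen after seeing the data (0.56), and the rest of chromosome 6 (0.58). The replicate block (0.62) has 4 pairs and a smallest p of 0.125, so it could not keep the call. Without 1 list it was 0.62 to 0.89. The middle part over the first, H3K4me3 against WT1 (−0.07), turned round with equal lists (0.17) and covered length (0.11), without the second H3K4me3 list of +KTS cells (0.0096) and without WT1 −KTS 2 (0.25), and without 1 list ran from −0.29 to 0.25. The middle over the last, H3K4me3 against WT1 (−0.27), turned round with equal lists (0.053), passed with both borders 100 kb to the left (−0.28) or 300 and 200 kb to the right (−0.32), and without 1 list ran from −0.37 to −0.15. The last over the first turned round for H3K4me3 with joined peaks (−0.12) and for WT1 with equal lists (0.032) and both borders 100 kb to the left (0.12). Its difference between assays was 0.088 to 0.40 without 1 list. The cause was not tested.

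Leaving out 1 list gave 1 to 7 H3K4me3 regions of −KTS cells alone and 7 to 82 of +KTS cells alone. It gave 17 to 586 −KTS recurrent regions, 12 to 101 at H3K4me3 and 0 to 322 shared, and 88 to 1105 for +KTS, 0 to 222 at H3K4me3 and 0 to 281 shared. With 1 list of a group left, that list alone was used. Genome shares were not counted beside these numbers. Equal lists left 6 −KTS regions, 4 at H3K4me3 and 0 shared, and 2 for +KTS, 0 at H3K4me3 and 0 shared. A score of at least 50 left 87 +KTS regions at H3K4me3 and 9 shared. Whole-list shares at H3K4me3 were not counted for equal lists or for a score of at least 50. With equal lists the MHC share at H3K4me3 was 46.7% of only 15 peaks for −KTS 1. It was 0% of 9 for +KTS 1 and 34.8% of 23 for +KTS 2. At a score of at least 50 it was 7.72% of 1335 for +KTS 1. Without 1 list it ran from 13.6 to 17.2% for −KTS 1, 61.9 to 76.2% for −KTS 2, 9.76 to 15.1% for +KTS 1, 15.5 to 21.3% for +KTS 2 and 0 to 14.7% for +KTS 3.

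The replicate numbers may not pair the libraries. Codes in the file names instead tie WT1 +KTS 2 to the first H3K4me3 list of +KTS cells and WT1 +KTS 3 to the second, against the label numbers used for the block. For the label numbers, deviations from the group means correlated at 0.083 and −0.20 in −KTS cells and at 0.19 and −0.19 in +KTS cells. In a group of 2 lists the deviations mirror each other, so these values cannot decide how libraries pair. The pairing by codes was not computed. With the replicate block the enrichment differed by 0.54 between isoforms, 0.37 between H3K4me3 of the 2 kinds of cell and 0.62 between assays, and the part ratios differed between assays by −0.33, −0.38 and 0.049. An overlap of at least 0.5 of a peak gives no other count of merged H3K4me3 regions, since a peak always lies inside its own. The unknown depth and WT1 list lengths from 3245 to 543203 limit what counts of peaks can show.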

Other observations

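The file names carry a code that WT1 +KTS 3 shares with the second H3K4me3 list of +KTS cells. Of the 16 MHC peaks in which these 2 lists met, 16 also met WT1 +KTS 1, 15 met +KTS 2 and 5 met −KTS 1, and 1 met any other H3K4me3 list. Whole-list shares were not counted beside these numbers. Among all 109 MHC peaks of WT1 +KTS 3, 4 (3.67%) met the first H3K4me3 list of +KTS cells, against 3.22% of its whole list. The second list of −KTS cells was met by 1 (0.917%), against 2.04%. A reason was not tested.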
